A study of Homo sapiens with 12 samples.

Results

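The genes described here are the alpha-arrestins TXNIP, ARRDC2, ARRDC3 and ARRDC4, the glucose-sensing transcription factor MondoA (gene symbol MLXIP) with its partner MLX, and HBP1, a transcriptional repressor grouped with them. They were chosen by name, with earlier results of these data known, and make up 7 of the 61209 genes in the count table. Their RNA was measured in A375 cells, an established line of human melanoma. The 4 groups were OGDH-depleted cells starved of glucose for 5 h, OGDH-depleted cells with glucose, control cells starved of glucose for 5 h, and control cells with glucose, with 3 RNA sequencing libraries each. OGDH encodes a subunit of 2-oxoglutarate dehydrogenase, an enzyme complex of the mitochondrial matrix. The depleted cells are named "OGDH KO" in the sample titles but knockdown cells in the design text. The labels give neither the method of depletion nor whether the line was 1 clone. Nor do they state separate cultures for replicates, so p-values reflect the spread among these 12 libraries alone, and that spread may be technical.

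As background, MondoA forms a dimer with MLX, and the dimer moves from the cytoplasm to the nucleus when glucose 6-phosphate accumulates. It binds carbohydrate response elements, a pair of E-box-like half-sites around a short spacer, and TXNIP and ARRDC4 are its best known targets. TXNIP binds thioredoxin and promotes the removal of glucose transporters from the cell surface, and AMP-activated protein kinase marks TXNIP protein for degradation. The other alpha-arrestins are adaptors that bring ubiquitin ligases of the NEDD4 family to membrane proteins.

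The promoters of TXNIP and ARRDC4 are shown because these 2 genes are the best known MondoA targets, and their levels are compared throughout. Each is the run of 250 bases just before the gene's first RefSeq start site, in build GRCh38.p14 and read 5′ to 3′ along the gene. The window for TXNIP is chr1:145996580-145996829 on the minus strand, and that for ARRDC4 is chr15:97960453-97960702 on the plus strand. Capitals mark matches to 4 motifs, which were chosen after the sequences had been looked at and were searched on both strands: the carbohydrate response element, written as 2 copies of CACGNG with 5 bases of any kind between them, the E-box CACGTG, the CCAAT box (ATTGG on the other strand) and the forkhead motif GTAAACA.
TXNIP: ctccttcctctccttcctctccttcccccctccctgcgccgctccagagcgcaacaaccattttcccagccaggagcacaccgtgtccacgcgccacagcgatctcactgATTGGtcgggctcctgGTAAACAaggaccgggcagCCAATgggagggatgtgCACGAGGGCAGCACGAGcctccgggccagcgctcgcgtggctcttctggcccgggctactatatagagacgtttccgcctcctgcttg
ARRDC4: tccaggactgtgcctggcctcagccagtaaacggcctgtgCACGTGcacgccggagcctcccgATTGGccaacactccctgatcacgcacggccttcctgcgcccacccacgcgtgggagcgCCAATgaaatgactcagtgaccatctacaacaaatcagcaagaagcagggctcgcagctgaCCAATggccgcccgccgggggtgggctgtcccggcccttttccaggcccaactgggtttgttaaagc

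The TXNIP window held 1 carbohydrate response element, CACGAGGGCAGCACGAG, at -88 to -72 counted from the start site, where -1 is the base just before it. It also held CCAAT boxes at -140 to -136 and at -105 to -101, and a forkhead motif at -124 to -118. The ARRDC4 window held an E-box at -210 to -205 and 3 CCAAT boxes, and the full element was not matched in it. No marked match overlapped another in either window. Of 35116 RefSeq promoter windows of the same length, 0.0456% held the element, 6.34% the E-box, 32% a CCAAT box and 2.98% the forkhead motif. The table had entries for all 7 genes, with 11 windows in all. Among these windows the element was matched in TXNIP only, while the E-box was also matched in MLX, and the forkhead motif in HBP1 and in the second window of ARRDC3. A match is a description of the letters and says nothing of binding in these cells. The pattern was chosen with the TXNIP sequence in view, and only this strict form was searched. A missing match, as in ARRDC4, therefore does not show that an element is absent.

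Libraries held 21556273 to 25546615 counted fragments. OGDH itself was measured at 32.8 ± 0.904 CPM in starved and 39.8 ± 4.68 CPM in fed OGDH-depleted cells, against 131 ± 2.01 CPM in starved and 154 ± 11.9 CPM in fed control cells (CPM, counts scaled to library size by TMM; SD, n = 3 each), which is 25.1% of control without glucose and 25.8% with glucose. The melanocyte-lineage factors SOX10 (348 to 633 mean CPM over the groups) and MITF (25.9 to 44.2 mean CPM) were expressed, whereas the pigment gene MLANA stood at 0.852 to 1.32 mean CPM and TYR at or near 0. Some lineage markers also moved. On starvation in control cells SOX10 changed by -0.86 and S100B by -1.28 on the log2 scale. TYRP1 rose to 2.57 mean CPM in starved control cells, against 0.221 in fed ones. These 3 of 9 tested markers were called again with OGDH depletion in starved cells and for the interaction. Of all tested genes 34.5%, 28.7% and 17.3% passed in these comparisons, the first 2 shares being close to 3 of 9. TYRP1 rests on 2 to 53 fragments per library and S100B on 12 to 42. The part of the markers in the results below was not tested. Of 10 markers of blood, endothelial, epithelial, liver, fibroblast and muscle cells, 2 were counted highly enough to be tested, PECAM1 (at most 0.562 CPM in any library) and COL1A1 (at most 1.75 CPM). The share of fragments from mitochondrially encoded genes ranged over 3.06 to 14.6%. Within 3 of the groups 1 library stood apart from the other 2 in this share and in how its counts depended on GC content: starved OGDH-depleted replicate 3, starved control replicate 3 and fed control replicate 2. Apart is meant within the group only. Starved control replicate 3 (4.11%) was close to most libraries of the other groups. Starved control replicates 1 and 2 (14.4 and 13.2%) resembled fed control replicate 2 (14.6%). Values without the 3 libraries that stand apart are given where a call or direction depends on them. That fit leaves starved control cells with shares of 14.4 and 13.2%, against 3.06 to 6.98% in every library kept of the other groups. Comparisons that use starved control cells therefore cannot separate the group from the share in that fit.

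TXNIP RNA was lowest in starved OGDH-depleted cells and highest in fed control cells. It was measured at 3.57, 2.92 and 2.64 CPM in starved OGDH-depleted cells and at 8.81, 8.26 and 8.74 CPM in fed OGDH-depleted cells. Control cells had 7.01, 8.11 and 6.65 CPM when starved and 10.7, 10.8 and 11.1 CPM when fed. The 4 groups did not overlap, and every starved OGDH-depleted library lay below every other library. These levels rest on 58 to 270 fragments per library. TXNIP fell on starvation in both lines, to 35.5% of the fed level in OGDH-depleted cells (log2 fold change -1.49, SE 0.13, adjusted p = 9.1e-05 by edgeR's quasi-likelihood test) and to 66.7% in control cells (-0.58, SE 0.13, adjusted p = 0.0043). The fall was larger in OGDH-depleted cells by 0.91 on the log2 scale (interaction -0.91, SE 0.18, adjusted p = 0.0059). Among all tested genes its fold change ranked 283 from the bottom of 18526 in OGDH-depleted cells and stood at the 18.7th percentile in control cells.

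OGDH depletion was also compared at each glucose state, with groups that the starvation comparisons share. Without glucose, TXNIP in OGDH-depleted cells was 42.1% of the control level (log2 fold change -1.25, SE 0.14, edgeR adjusted p = 5e-05). With glucose it was 79.1% of control (-0.34, SE 0.13, unadjusted p = 0.021, adjusted p = 0.21), which did not pass the threshold of 0.05 although the groups did not overlap. Without the 3 libraries that stand apart, TXNIP changed by -1.42 on starvation in OGDH-depleted cells (adjusted p = 4.1e-05), by -0.54 on starvation in control cells (adjusted p = 0.0038), and by -1.24 with OGDH depletion in starved cells (adjusted p = 3.3e-05), all on the log2 scale. RNA was measured in bulk, so fewer cells expressing a gene and less RNA per cell cannot be told apart.

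**Figure D1:**
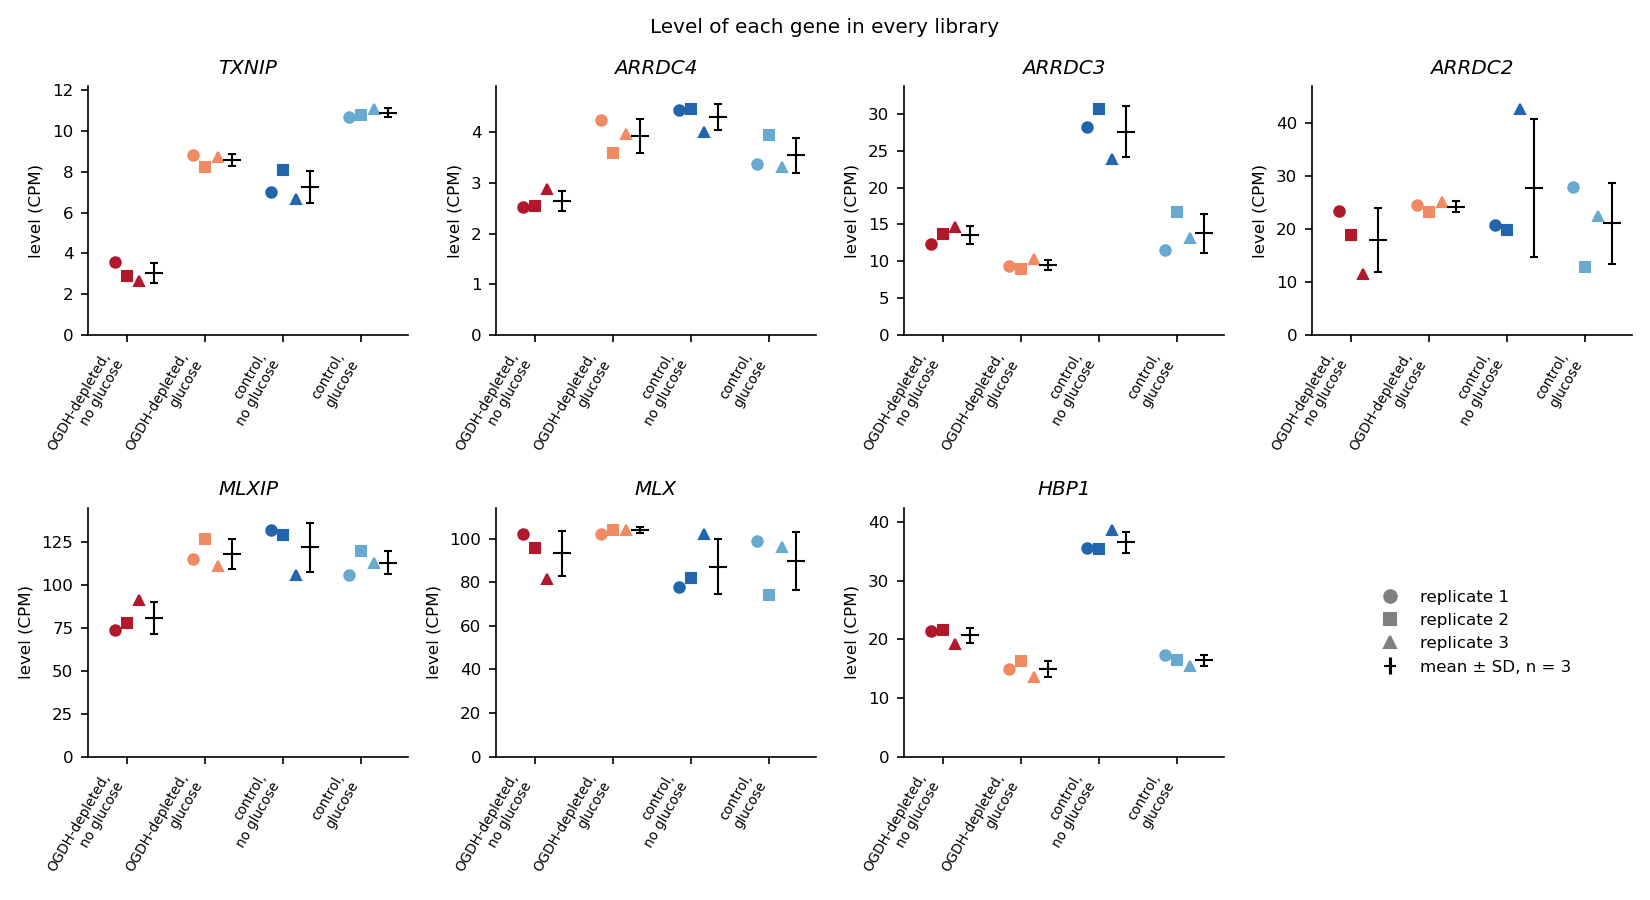
Level of each of the 7 genes in CPM (linear axis from 0) in the 12 libraries, by group; marker shape gives the replicate and bars give the mean and SD of 3 libraries. TXNIP was lowest in starved OGDH-depleted cells (2.64 to 3.57 CPM), and ARRDC3 and HBP1 were highest in starved control cells.

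ARRDC4, the closest relative of TXNIP among MondoA targets, differed from it in control cells. Its level was 2.52, 2.54 and 2.87 CPM in starved OGDH-depleted cells and 4.24, 3.58 and 3.96 CPM in fed ones. In control cells it was 4.43, 4.46 and 4.0 CPM after starvation and 3.37, 3.94 and 3.31 CPM with glucose. Only the starved OGDH-depleted libraries lay below all the others. ARRDC4 fell on starvation in OGDH-depleted cells (log2 fold change -0.57, SE 0.14, edgeR adjusted p = 0.028), and its value in control cells was 0.28 (SE 0.13, adjusted p = 0.13). The fall in OGDH-depleted cells passed narrowly: without any 1 of the 6 libraries compared the adjusted p was 0.052 to 0.12. The difference between the starvation responses was -0.85 (SE 0.19, adjusted p = 0.011). Without the 3 libraries that stand apart, which leaves high mitochondrial shares in starved control cells alone, starvation in control cells gave 0.41 (adjusted p = 0.042). In all 3 groups that hold such a library, ARRDC4 was higher where the share was high, and the part of this share was not tested. In starved cells ARRDC4 was lower with OGDH depletion, at 61.6% of control (-0.70, SE 0.14, adjusted p = 0.0028), while with glucose its value was 0.15 (SE 0.13, adjusted p = 0.64). These levels rest on 61 to 106 fragments per library.

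ARRDC3, an adaptor for ubiquitination of beta-adrenergic receptors and of integrin beta-4, took the opposite direction to TXNIP on starvation. It was measured at 12.3, 13.7 and 14.7 CPM in starved and 9.33, 8.92 and 10.3 CPM in fed OGDH-depleted cells. Control cells had 28.2, 30.7 and 23.9 CPM after starvation and 11.5, 16.7 and 13.1 CPM with glucose. Every starved control library lay above all the others, and starved OGDH-depleted cells overlapped fed control cells. ARRDC3 rose on starvation in control cells (log2 fold change 1.0, SE 0.15, edgeR adjusted p = 0.00039), and its value in OGDH-depleted cells was 0.51 (SE 0.15, adjusted p = 0.072). Without glucose it was lower in OGDH-depleted cells, at 49.1% of control (adjusted p = 0.00046). With glucose it stood at 69.2% of control (-0.53, SE 0.15, unadjusted p = 0.0052, adjusted p = 0.1).

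For ARRDC3 1 fed control library weighed on the calls. Replicate 2 of that group, 1 of the 3 that stand apart, had the highest ARRDC3 of its group at 16.7 CPM. The difference between the starvation responses was -0.49 (SE 0.22, edgeR adjusted p = 0.15), and -0.65 without that library (adjusted p = 0.035). Without that library, starvation in OGDH-depleted cells gave 0.51 (adjusted p = 0.029). Without all 3, the interaction was -0.83 (adjusted p = 0.0012) and the value with glucose was -0.38 (adjusted p = 0.042). That fit leaves high mitochondrial shares in starved control cells alone, so its interaction cannot separate starvation from the share. In all 3 groups that hold a library standing apart, ARRDC3 was higher where the share was high. The part of this share was not tested.

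ARRDC2 varied widely within groups. It was measured at 23.4, 19.0 and 11.6 CPM in starved and 24.6, 23.2 and 25.2 CPM in fed OGDH-depleted cells. Control cells had 20.9, 19.8 and 42.8 CPM after starvation and 28.0, 12.8 and 22.5 CPM with glucose. The farthest value of each group other than fed OGDH-depleted cells was that of the library that stands apart. In those libraries the mitochondrial share also differed from the other 2, at 9.71% against 3.06 and 5.12% in starved OGDH-depleted cells, 4.11% against 14.4 and 13.2% in starved control cells, and 14.6% against 4.97 and 6.35% in fed control cells. ARRDC2 was low where the share was high, and the part of this share in its values was not tested. ARRDC2 passed in no comparison, with log2 fold changes of -0.43 and 0.40 on starvation in OGDH-depleted and control cells (SE 0.35 each; edgeR adjusted p = 0.46 and 0.41) and of -0.63 and 0.20 with OGDH depletion in starved and fed cells (SE 0.35 each; adjusted p = 0.21 and 0.82). Without the 3 libraries its value for starvation in control cells was -0.32 (adjusted p = 0.044), in the other direction. In that fit the starved control cells alone keep high mitochondrial shares, so it cannot separate starvation from the share. With each library's GC slope as a covariate, a fit added after seeing the data, it was 0.67 (adjusted p = 4.5e-07), and OGDH depletion in starved cells gave -0.56 (adjusted p = 3.8e-06) and the interaction -0.48 (adjusted p = 0.00081). The direction of ARRDC2 on starvation in control cells therefore differed between fits, both of which passed.

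MLXIP, which encodes MondoA, was lowest in starved OGDH-depleted cells. It stood at 73.5, 77.6 and 91.3 CPM there and at 115, 127 and 111 CPM in fed OGDH-depleted cells. Control cells had 132, 129 and 106 CPM after starvation and 106, 120 and 113 CPM with glucose. The starved OGDH-depleted libraries did not overlap any other group, and the 3 other groups overlapped one another. Within each group MLXIP was higher where the mitochondrial share was higher, and the part of this share was not tested. On starvation MLXIP fell in OGDH-depleted cells (log2 fold change -0.54, SE 0.12, edgeR adjusted p = 0.018). Its value in control cells was 0.12 (SE 0.12, adjusted p = 0.47). MLXIP gave 0.25 there (adjusted p = 0.017) without the 3 libraries that stand apart, which leaves high shares in starved control cells alone. In starved cells it was 66.1% of control (-0.60, SE 0.12, adjusted p = 0.0028), and with glucose its value was 0.06 (SE 0.12, adjusted p = 0.84). The interaction was -0.66 (SE 0.17, adjusted p = 0.018). Without starved or fed OGDH-depleted replicate 2 the interaction missed the threshold (adjusted p = 0.051 and 0.054), and without replicate 1 or 2 of either group the fall in OGDH-depleted cells did too (adjusted p = 0.058 to 0.084).

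MLX, the dimer partner, passed in no comparison. Its level was 102, 96.0 and 81.7 CPM in starved and 102, 104 and 104 CPM in fed OGDH-depleted cells. It was 78.1, 82.1 and 102 CPM in starved and 99.0, 74.4 and 96.1 CPM in fed control cells. As for ARRDC2, the farthest MLX value of each of 3 groups came from the library that stands apart, and it was low where the mitochondrial share was high; the part of this share was not tested. Log2 fold changes on starvation were -0.15 in OGDH-depleted and -0.04 in control cells (SE 0.14 each; edgeR adjusted p = 0.51 and 0.85). Without the 3 libraries, which leaves high shares in starved control cells alone, the value in control cells was -0.29 (adjusted p = 0.0026). The same fit gave 0.28 for OGDH depletion in starved cells (adjusted p = 0.0039), against 0.10 (SE 0.14, adjusted p = 0.66) with all libraries. Exons of MLX share 18.2% of their bases with PSMC3IP on the other strand, and fragments there were not counted for either gene.

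HBP1, an HMG-box repressor of cell-cycle genes, rose on starvation in both lines. It was measured at 21.4, 21.5 and 19.2 CPM in starved and 14.9, 16.3 and 13.6 CPM in fed OGDH-depleted cells. Control cells had 35.6, 35.4 and 38.6 CPM after starvation and 17.4, 16.4 and 15.4 CPM with glucose. Starved control cells lay above starved OGDH-depleted cells, which lay above both fed groups, and the fed groups overlapped. The log2 fold change on starvation was 0.48 in OGDH-depleted cells (SE 0.10, edgeR adjusted p = 0.02) and 1.15 in control cells (SE 0.10, adjusted p = 8.6e-06), with an interaction of -0.68 (SE 0.15, adjusted p = 0.0086). The rise in OGDH-depleted cells missed the threshold without replicate 1 or 2 of the starved or replicate 1 or 3 of the fed OGDH-depleted group (adjusted p = 0.056 to 0.097). In starved cells HBP1 was 56.7% of control with OGDH depletion (-0.82, SE 0.10, adjusted p = 0.00015), and with glucose its value was -0.14 (SE 0.10, adjusted p = 0.57). Exons of HBP1 share 18% of their bases with COG5 on the other strand. Smaller shares were found for ARRDC2, at 9.53% with an unnamed gene, and for ARRDC3, at 2.91% with ARRDC3-AS1, both on the other strand.

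**Figure D2:**
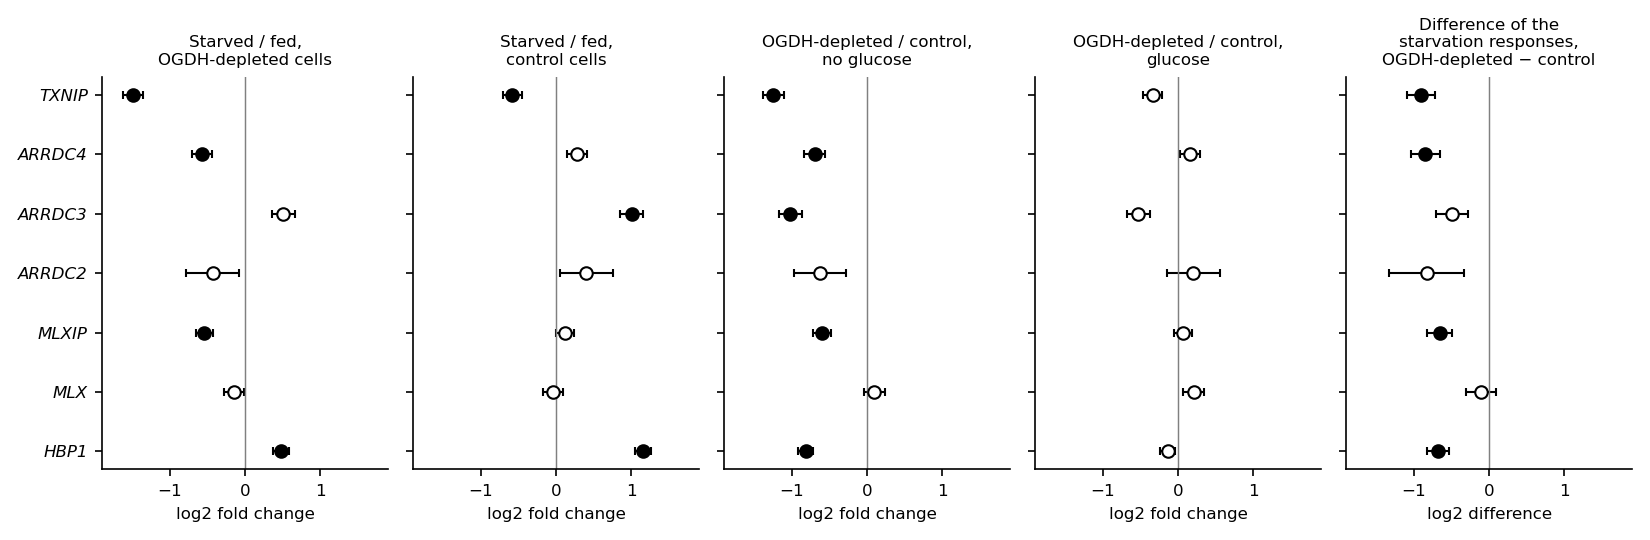
Log2 fold changes of the 7 genes in the 5 comparisons, with bars of 1 SE; filled symbols have an adjusted p under 0.05 by edgeR. TXNIP lies below 0 in all 5, and the interaction is below 0 for all 7 genes, with 4 of them past the threshold.

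Counted over the 7 genes, OGDH depletion in starved cells gave the most calls. The 7 genes were chosen with earlier results of these data known, so the counts beside all genes are a description and no test. Of the 7, 5 were lower and 0 higher (TXNIP, ARRDC3, ARRDC4, MLXIP and HBP1), with a median log2 fold change of -0.70 against 0.0042 over all tested genes; 28.7% of all 18526 tested genes passed in that comparison, 13.7% higher and 15% lower. With glucose 0 of the 7 passed by edgeR against 3.04% of all genes (1.59% higher, 1.45% lower), 2 had an unadjusted p under 0.05, and DESeq2 called 1 (ARRDC3, -0.52, adjusted p = 0.027); their median was 0.06 against -0.01. Starvation in OGDH-depleted cells called 1 higher and 3 lower, against 7.18% of all genes, 2.42% higher and 4.76% lower, with a median of -0.43 against 0.02. This count was 1 without starved replicate 1 or 2 or fed replicate 1 of the OGDH-depleted cells, and 2 without fed replicate 2 or 3. Starvation in control cells called 2 higher and 1 lower, against 34.5% of all genes, 17% higher and 17.5% lower, a share near that of the 7, with a median of 0.28 against -0.02. The count in control cells was 7 without the 3 libraries that stand apart, a fit that called 11364 of all 18776 genes there. The interaction called 4, all lower, against 17.3% of all genes, 8.3% higher and 8.95% lower, with a median of -0.68 against 0.01.

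Per kilobase of merged exon, a scale on which genes can be compared with each other, MLX was the most abundant of the 7 in every group and ARRDC4 the least. MLX averaged 21.9 CPM per kilobase in starved and 24.3 in fed OGDH-depleted cells, and 20.5 in starved and 21.1 in fed control cells. MLXIP came next at 5.83, 8.48, 8.82 and 8.13 CPM per kilobase in the same groups, overlapping ARRDC2 in starved control cells. Merged exons count every isoform's exons, so a gene with long rarely used exons is placed too low on this scale. The place of TXNIP in the order moved with glucose. In fed OGDH-depleted cells it was the fourth gene at 2.39 CPM per kilobase, overlapping HBP1 at 2.35, and in fed control cells it was the fourth at 3.02, overlapping ARRDC2 at 4.55 and ARRDC3 at 2.76. After starvation it was the sixth, at 0.844 CPM per kilobase in OGDH-depleted and 2.01 in control cells, below ARRDC3 (2.72 and 5.54) in every library of both groups.

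**Figure D3:**
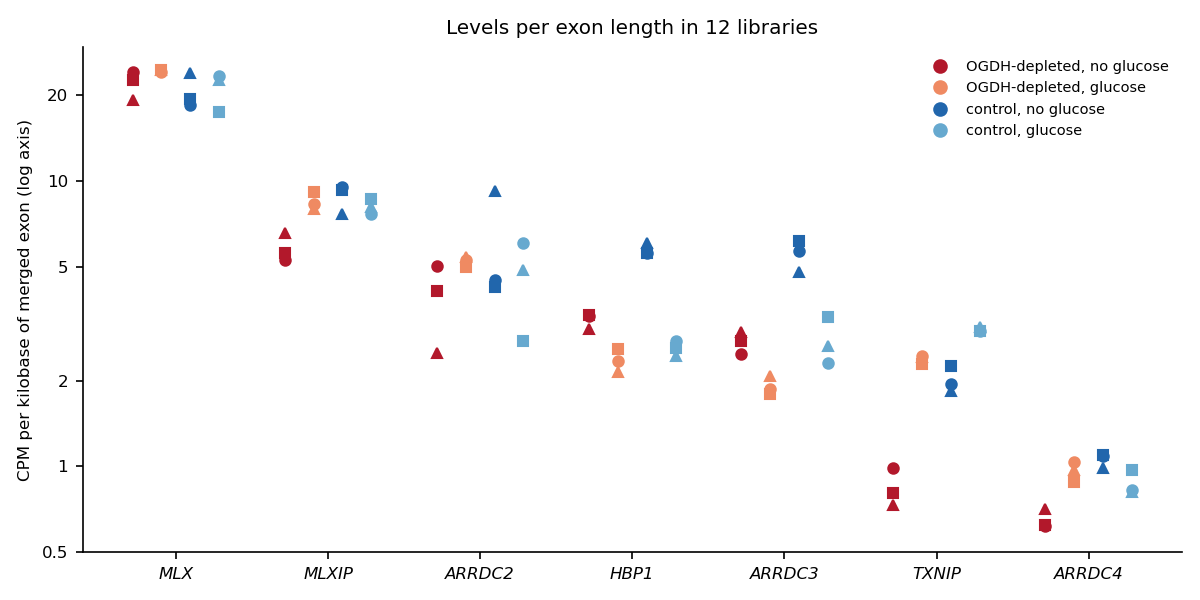
Level per kilobase of merged exon (CPM per kilobase, log axis) of the 7 genes in the 12 libraries, coloured by group, with marker shape giving the replicate. MLX sits at the top and ARRDC4 at the bottom in each group, and TXNIP falls below ARRDC3 in both starved groups.

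Ratios taken inside a library do not depend on how libraries are scaled. The ratio of TXNIP to ARRDC3 was 0.248 to 0.401 in starved and 1.17 to 1.31 in fed OGDH-depleted libraries, and 0.344 to 0.385 in starved and 0.892 to 1.29 in fed control libraries. The starved and fed libraries did not overlap in either line, and the 2 starved groups overlapped each other. The ratio of TXNIP to HBP1 also separated starved from fed libraries, with 0.238 to 0.294 in starved and 0.892 to 1.13 in fed OGDH-depleted libraries, and 0.303 to 0.403 in starved and 1.08 to 1.27 in fed control libraries. TXNIP to ARRDC4 separated all 4 groups, at 1.04 to 1.60 in starved and 2.34 to 2.60 in fed OGDH-depleted libraries, against 1.78 to 2.05 in starved and 3.08 to 3.79 in fed control libraries. With 3 libraries against 3, an exact permutation test of a single value cannot pass the threshold, and the ratios are given as a description, with no model fitted to them. Of the summed level per kilobase of TXNIP and ARRDC1 to ARRDC4, TXNIP made up 5.15 ± 0.332% in starved and 11.1 ± 0.223% in fed OGDH-depleted cells, and 8.75 ± 2.28% in starved and 15.6 ± 2.92% in fed control cells (SD, n = 3 each).

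**Figure D4:**
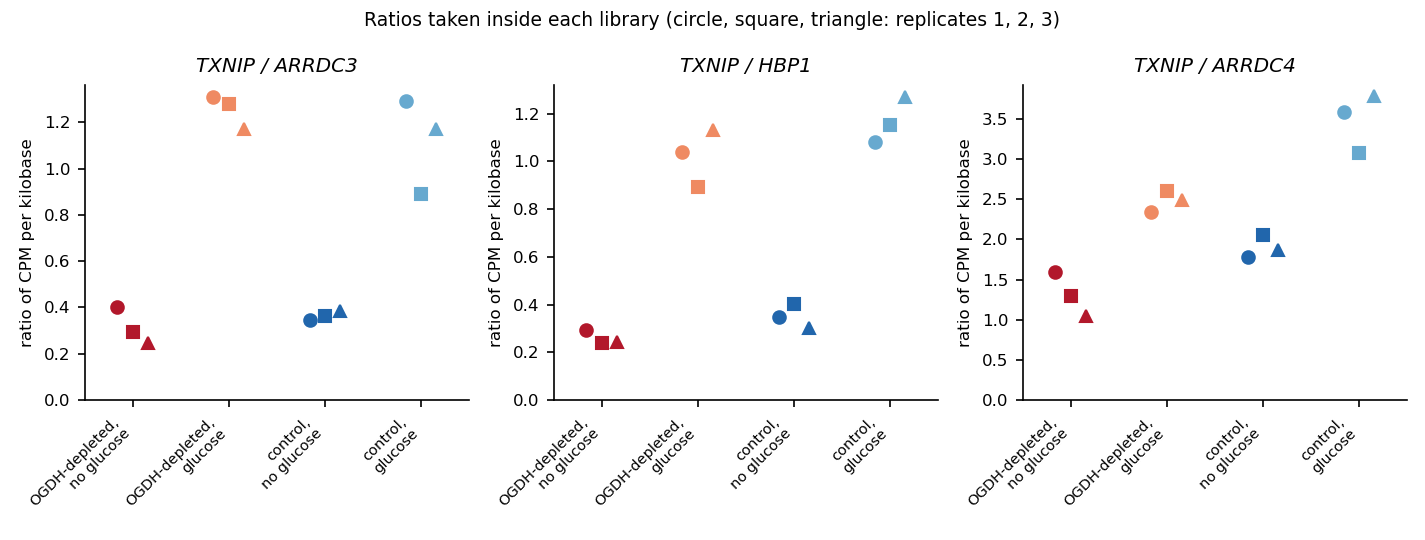
Ratios of CPM per kilobase inside each library (linear axes from 0), by group, with marker shape giving the replicate. TXNIP to ARRDC3 and TXNIP to HBP1 separate starved from fed libraries in both lines, and TXNIP to ARRDC4 separates all 4 groups.

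Across the 12 libraries, log2 levels of ARRDC4 and MLXIP had a Pearson r of 0.903, ARRDC3 and HBP1 of 0.893, TXNIP and MLXIP of 0.778, and TXNIP and ARRDC4 of 0.71. TXNIP and ARRDC3 had an r of -0.042. The 12 points share 4 groups and their libraries' composition, so these values describe the pattern and carry no test. Of 11127 genes with at least 5 mean CPM, those most like TXNIP were VAMP1 (r = 0.974), a vesicle fusion protein, EEF2K (0.971), the kinase of elongation factor eEF2, and WARS2-AS1 (0.965), an antisense RNA. VAMP1 had 3.27 ± 0.678 CPM in starved and 7.11 ± 0.436 CPM in fed OGDH-depleted cells, and 7.03 ± 0.607 CPM in starved and 8.91 ± 0.694 CPM in fed control cells (SD, n = 3 each). The genes most like ARRDC4 were CRIM1 (0.948), the unnamed gene ENSG00000276952 (0.938) and ANKRD11 (0.935). Those most like ARRDC3 were STT3B, ARNTL and SERPINB7, each with an r of 0.991.

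Other genes of the pathway were followed in lists. Of 4 other genes listed as MondoA targets, 4 rose on starvation in control cells, among them KLF11 (log2 fold change 1.15), HK2 (0.95) and KLF10 (1.86), where TXNIP fell; 34.5% of all tested genes passed in that comparison. HK2 encodes a hexokinase, which makes glucose 6-phosphate. In starved cells 3 of the 4 were lower with OGDH depletion, including HK2 (-0.94) and KLF11 (-0.49), against 28.7% of all genes called, and 0 passed with glucose by edgeR, with 0 at an unadjusted p under 0.05. Starvation in OGDH-depleted cells called 2 of them, against 7.18% of all genes, a count that was 0 or 1 without 9 of the 12 libraries left out in turn: every OGDH-depleted library, starved control replicates 1 and 2, and fed control replicate 3. The list's median log2 fold change was 0.19 on starvation in OGDH-depleted cells, 1.05 on starvation in control cells and -0.82 with OGDH depletion in starved cells, against 0.02, -0.02 and 0.0042 over all genes. The interaction called 3 of them, all lower, against 17.3% of all genes, with HK2 at -1.06 (adjusted p = 0.0032).

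Of 11 other genes of the MLX and MAX network, 9 were tested; MLXIPL, the paralog of MondoA, and MYCN were not. On starvation in control cells 3 of the 9 rose, close to the 34.5% of all genes that passed, with MXD1, a MAX-binding repressor, at 2.87 and MYC at 1.85, and this count was 6 without starved control replicate 3 and 5 without fed control replicate 2. In starved cells 4 of the 9 were lower with OGDH depletion, with MXD1 at -1.75 and MYC at -0.81, against 28.7% of all genes called, and the interaction called 3, all lower, against 17.3%. With glucose 1 was higher, MYC at 0.86 (edgeR adjusted p = 0.0042), against 3.04% of all genes called. This count was 5 without the 3 libraries that stand apart, and that for starvation in control cells was 8. That fit called 2021 and 11364 of all 18776 genes in these comparisons. Starvation in OGDH-depleted cells called 1 higher, MXD1 at 1.03, and 1 lower, MNT at -0.45; MNT missed the threshold without any 1 of the same 9 libraries. The list's median log2 fold change was 0.40 on starvation in control cells and -0.75 with OGDH depletion in starved cells. Of the remaining alpha-arrestins, ARRDC1 passed in none of the 5 comparisons (edgeR adjusted p at least 0.33), with 31.5 ± 5.51 CPM in starved and 41.4 ± 1.53 CPM in fed OGDH-depleted cells and 34.7 ± 10.5 CPM in starved and 32.6 ± 9.37 CPM in fed control cells (SD, n = 3 each), and ARRDC5 was too low to test. As for ARRDC2, the farthest ARRDC1 value of each of 3 groups came from the library that stands apart. ARRDC1 was low where the mitochondrial share was high, and the part of this share was not tested.

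Genes for proteins that TXNIP acts on, or that act on it, were followed next. Of 9 glucose transporters 5 were tested, and SLC2A3, a high-affinity transporter, had 70.0 ± 3.93 CPM in starved and 31.3 ± 1.04 CPM in fed OGDH-depleted cells, and 190 ± 15.7 CPM in starved and 31.7 ± 1.16 CPM in fed control cells (SD, n = 3 each). It rose on starvation in both lines, by 1.16 and 2.58 on the log2 scale in OGDH-depleted and control cells, with an interaction of -1.42 (edgeR adjusted p = 3e-05). SLC2A1, the transporter that TXNIP is best known to internalize, passed in none of the 5 comparisons, with 344 ± 103 CPM in starved and 358 ± 19.6 CPM in fed OGDH-depleted cells and 416 ± 175 CPM in starved and 305 ± 106 CPM in fed control cells (SD, n = 3 each). Its spread was wide in every group but fed OGDH-depleted cells. On starvation in control cells its log2 fold change was 0.45 (SE 0.32, edgeR adjusted p = 0.31), so a missed call does not show that SLC2A1 was unchanged. Of the 5 transporters, 1 rose and 2 fell on starvation in control cells, against 34.5% of all genes called, and 2 were higher and 1 lower with OGDH depletion in starved cells, against 28.7%. On starvation in OGDH-depleted cells 2 rose, against 7.18%, of which SLC2A13 (0.50) missed it without any 1 of those 9 libraries or fed control replicate 1. Of 10 genes of the thioredoxin system, TXNRD1, thioredoxin reductase, rose in starved control cells (1.68) and was lower with OGDH depletion in starved cells (-1.20). Its interaction was -1.80 (adjusted p = 5.9e-06). TXN, the thioredoxin that TXNIP binds, rose on starvation in control cells (0.60, edgeR adjusted p = 0.014), a call missed without any 1 of 4 libraries. With OGDH depletion in starved cells TXN was at -0.44 (adjusted p = 0.061), and its interaction was -0.29 (adjusted p = 0.44).

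In these last lists the counts moved with the fit, in both directions. In the edgeR fit of all libraries 34.5% of all genes were called for starvation in control cells. The shares were 28.7% for OGDH depletion in starved cells and 7.18% for starvation in OGDH-depleted cells. Without the 3 libraries that stand apart, 11364 and 9874 of 18776 genes were called in the first 2 of these. With the GC slope as a covariate, 4939 of 18526 were called in the third. Within the thioredoxin list, 2 of 10 rose and 1 fell on starvation in control cells, a count of 3 that was 8 without the 3 libraries that stand apart and 1 without replicate 1 or 2 of the starved or 1 or 3 of the fed control cells. With OGDH depletion in starved cells 1 was higher and 1 lower, a count that was 7 without those 3 libraries and 1 without replicate 1 or 2 of either starved group. On starvation in OGDH-depleted cells 0 passed by edgeR, with 0 at an unadjusted p under 0.05, and 6 passed with the GC slope as a covariate. Of 9 NEDD4-family ligases, 5 rose and 1 fell on starvation in control cells, with HECW2 at 2.32, and 0 passed in OGDH-depleted cells by edgeR, with 1 at an unadjusted p under 0.05. With OGDH depletion in starved cells 1 ligase was higher and 3 were lower, with HECW2 at -1.61; the count of 4 was 7 without the 3 libraries that stand apart, 1 without starved OGDH-depleted replicate 1 or 2 or starved control replicate 1, and 2 without starved control replicate 2. Of 6 tested subunits of AMP-activated protein kinase, 3 rose on starvation in control cells, with PRKAB2 at 1.26, and 6 passed without the 3 libraries. In OGDH-depleted cells 0 passed by edgeR, with 0 at an unadjusted p under 0.05, and 2 passed with the GC covariate. With OGDH depletion in starved cells 2 subunits were lower, with PRKAB2 at -1.14, a count that was 4 without the 3 libraries, and PRKAB2 alone passed without starved OGDH-depleted replicate 1 or 2.

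**Figure D5:**
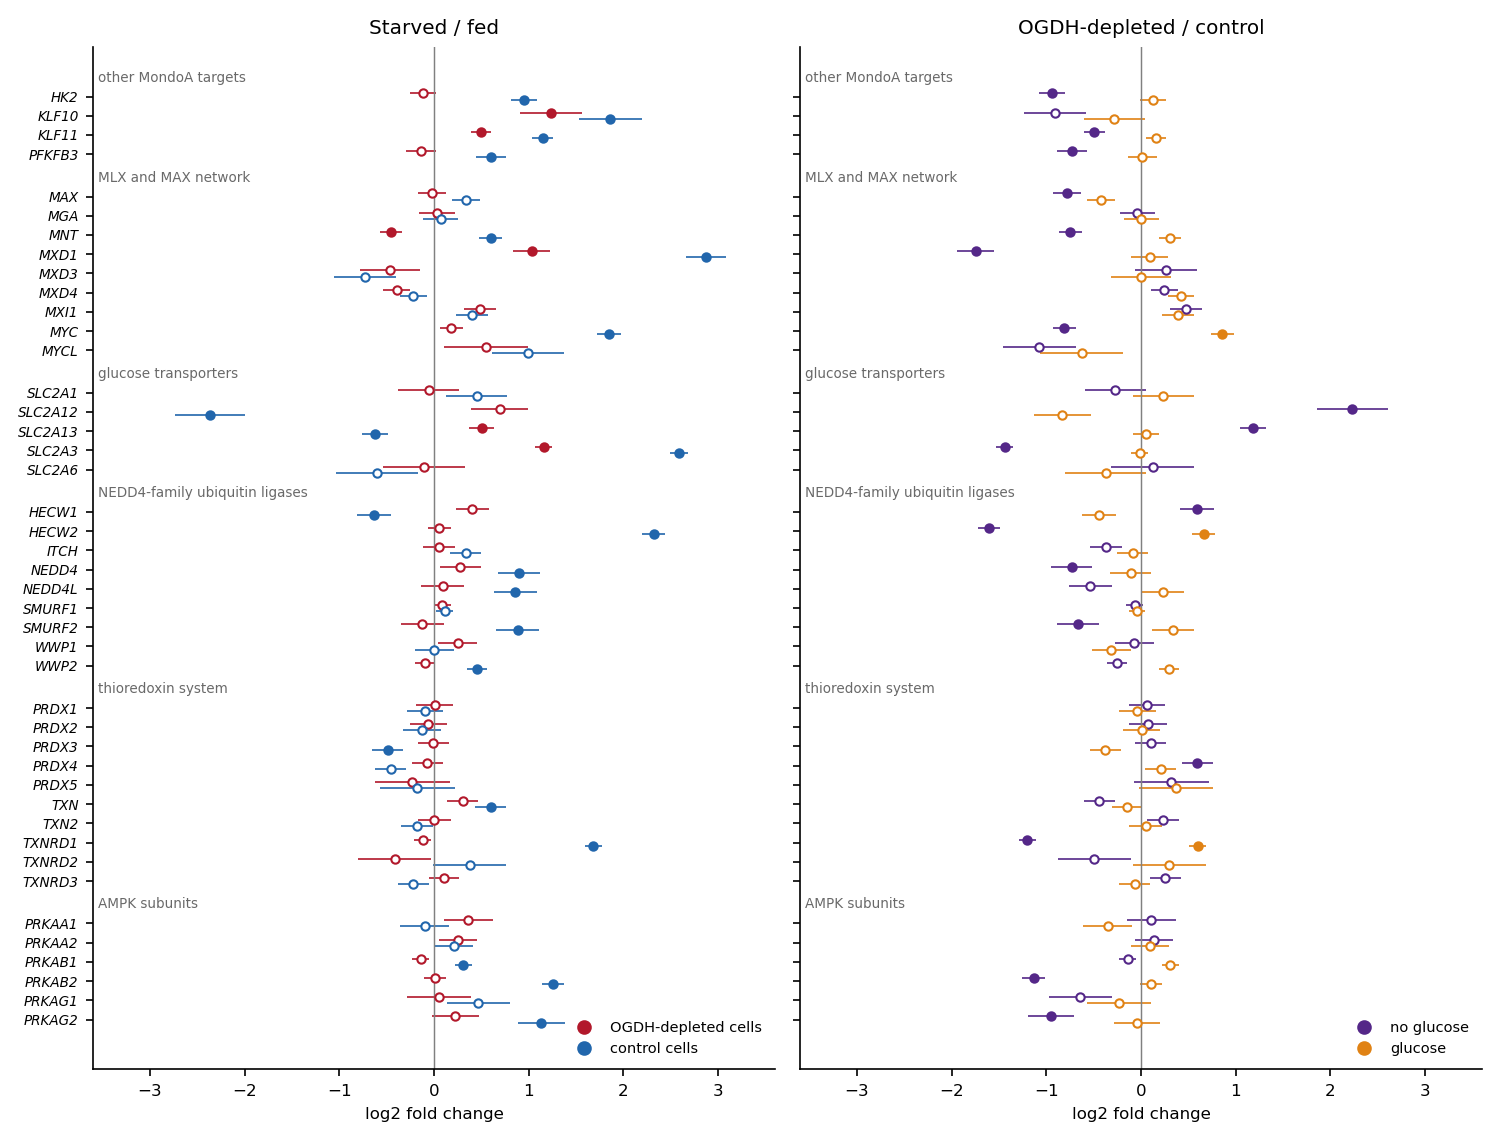
Log2 fold changes of the tested genes of each list in 4 comparisons; filled symbols have an edgeR adjusted p under 0.05. Most filled symbols lie above 0 for starvation in control cells and below 0 for OGDH depletion in starved cells, while SLC2A12, SLC2A13 and HECW1 are lower in the first and higher in the second.

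The carbohydrate response element of the TXNIP promoter was also used to look across the genome, as a description. Windows with a match belonged to 16 genes, of which 14 were tested, and TXNIP was the only one of the 7 genes described here. On starvation in OGDH-depleted cells 2 of the 14 passed, TXNIP lower and AKAP10 higher (0.35, edgeR adjusted p = 0.039), a share of calls to be read against 7.18% of all genes. On starvation in control cells 4 were higher and 2 lower, against 34.5%, and with OGDH depletion in starved cells 2 were higher and 4 lower, against 28.7%.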

How the data were processed

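The values analysed are raw fragment counts, deposited as 1 table that featureCounts 2.0.1 wrote for all libraries, per the file headers. Read pairs were assigned to exons with no regard to strand, per the file headers, so exons shared with an antisense gene lose counts. The submitters' processing notes name Subread and hg38 but neither an aligner nor the kind of library. Gene coordinates and exon lengths are those of the deposited table.

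Genes were kept by filterByExpr (minimum count 10, minimum total 15), which left 18526 of 61209. TMM-scaled counts entered a quasi-likelihood F-test in edgeR 4.0.16 under R 4.3.3, with 4 group means over 12 libraries in a joint model. The 5 contrasts were starvation in OGDH-depleted and in control cells, OGDH depletion in starved and in fed cells, and the interaction, which is the first of these minus the second. Benjamini-Hochberg adjustment ran over all tested genes, with a threshold of 0.05. CPM, the count relative to TMM-scaled library size, and CPM per kilobase were computed from the counts.

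The alternatives were DESeq2 1.42.0, upper-quartile scaling, no filter, a stricter filter (1 CPM in 3 libraries), only the compared groups, a replicate block and each library left out in turn. Leaving out the 3 libraries that stand apart, and each library's GC slope as a covariate, were added after seeing the data. The first of these leaves starved control cells as the only group with high mitochondrial shares. The members and lists were chosen with earlier results of these data known. All 7 genes are named in every comparison, of each list at most the 3 genes with the smallest p per contrast, and the 3 genes most like TXNIP, ARRDC4 and ARRDC3 by Pearson r of log2 CPM (prior count 2). Names outside this rule (SLC2A1, TXN, AKAP10, MLXIPL and ARRDC1 with its levels) were added for their role or as single counts after their values were seen. The test was tried on simulated counts. Replicates of a group correlated at 0.974 to 0.994, and no library repeated another of its own group.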

Additional observations from a re-analysis of the deposited data

Results flagged for a closer look

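For 4 of the 7 genes the starvation response differed between OGDH-depleted and control cells by the interaction term of the edgeR model. The log2 fold change on starvation was lower in OGDH-depleted cells by 0.91 for TXNIP (interaction -0.91, adjusted p = 0.0059), which fell in both lines. ARRDC4 had an interaction of -0.85 (adjusted p = 0.011), HBP1 of -0.68 (adjusted p = 0.0086), and MLXIP of -0.66 (adjusted p = 0.018). HBP1 rose less in OGDH-depleted cells than in control cells. Of all tested genes 17.3% passed for the interaction.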

How the results depend on the processing

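TXNIP kept its direction in every fit and its 4 calls in each, and its value with glucose passed with the GC slope as a covariate (-0.34, adjusted p = 0.029). Over all comparisons and the 7 genes, 588 planned refits kept direction and call, 21 lost a call, 5 gained one and 9 turned direction without one. The number of the 7 genes called was 7 for starvation in control cells without the 3 libraries that stand apart, where 11364 of all 18776 genes were called. For starvation in OGDH-depleted cells it was 2 with no filter and 1 to 5 with 1 library left out. For OGDH depletion with glucose it was 1 by DESeq2, 1 without the 3 libraries and 2 with the GC covariate, and for the interaction it was 2 with no filter. ARRDC4 and HBP1 then lost the interaction (adjusted p = 0.09 and 0.075), and in OGDH-depleted cells starvation (0.14 and 0.095).

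ARRDC2 and MLX turned direction, mostly at values that did not pass. ARRDC2 gave -0.056 to 0.658 for starvation in control cells with 1 library left out and -0.32 without the 3 libraries. It gave 0.19 for starvation in OGDH-depleted cells with the GC covariate. With glucose it gave -0.056 to 0.465 with 1 library left out, -0.067 without the 3 and -0.078 with the covariate, and without the 3 it gave 0.042 for OGDH depletion in starved cells and 0.108 for the interaction, against called values of -0.56 and -0.48 with the covariate, which also called starvation in control cells (0.67). MLX gave -0.166 to 0.034 for starvation in control cells with 1 library left out and 0.057 with the covariate, and 0.074 with the covariate in OGDH-depleted cells. Its interaction was -0.185 to 0.016 with 1 library left out, 0.208 without the 3 and 0.017 with the covariate. The interaction of OGDH itself was -0.10 to 0.062 with 1 library left out and 0.017 without the 3. The cause was not tested.

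The number of all genes called differed by over 1.5 times in some fits. Without the 3 libraries it was 3313, 11364, 9874, 2021 and 8077 for starvation in OGDH-depleted and control cells, OGDH depletion in starved and fed cells, and the interaction, and with the GC covariate 4939, 11063, 10693, 4343 and 8755, against 1330, 6400, 5310, 563 and 3196. DESeq2 called 2031 for the first and 1172 for OGDH depletion with glucose, and the compared groups alone called 215 for that comparison. With 1 library left out these reached down to 583 and 172. With the GC covariate 48.5% of calls for starvation in OGDH-depleted cells were higher, against 33.7%, and with glucose 63.4% without fed OGDH-depleted replicate 1 and 62.5% without replicate 3, against 52.2%.

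The list counts moved most with the covariate and without the 3 libraries: thioredoxin genes for the interaction were 9 and 8 against 1, MLX and MAX genes with glucose 7 and 5 against 1, and kinase subunits with glucose 4 and 1 against 0. Those fits also called more of all genes, as given above.

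Deviations of libraries with the same number gave r of -0.687 to 0.586, with no common sign. With 3 libraries per group, and 1 standing apart in 3 groups, these values cannot decide whether the numbers pair the samples. With the replicate block ARRDC4 missed the threshold for starvation in OGDH-depleted cells (-0.57, adjusted p = 0.061), the count of the 7 called there was 3, and with glucose 342 genes were called. TXNIP and ARRDC4 rest on 58 to 270 fragments per library, which limits their precision.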
